A study of Mus musculus with 10 samples.

Results

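The 78 mitochondrial ribosomal protein genes of the series were taken by name, as every gene of the deposited table whose symbol starts with Mrpl or Mrps and a number. They were 78 of 12806 named genes, 49 of the large subunit (Mrpl) and 29 of the small subunit (Mrps). All 78 had counts in all 10 libraries, with a lowest total of 2463 counts per gene, and all 78 passed the filters on low counts. The samples were mouse cell lines of a mixed strain background, grown from esophageal squamous cell carcinoma, which arises in the epithelium of the gullet. Every line carried the genotype Trp53R172H/-, a mutant Trp53 allele beside a missing one, so no line with wild-type p53 was measured. Each line held either a control short hairpin RNA (shCtrl) or one that lowers the mutant transcript (shTrp53). There was 1 primary line with shCtrl and 1 with shTrp53. A further 8 lines came out of metastases in the lung and were sorted for the reporter YFP. Of these, 5 were shCtrl metastatic lines (numbers 376, 377, 378, 382 and 383) and 3 were shTrp53 metastatic lines (384, 386 and 387). No label says which mouse a line came from or that lines of a group came from different mice, so p-values here cover only the spread among the lines.

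Mitochondria keep ribosomes of their own, which translate the few proteins encoded in mitochondrial DNA, all of them hydrophobic subunits of the oxidative phosphorylation complexes. The mitochondrial ribosome, or mitoribosome, has a small subunit that reads the messenger RNA and a large subunit that forms the peptide bond. Its ribosomal RNAs are transcribed in the organelle, while its proteins are encoded by nuclear genes, made in the cytosol and imported. Some of these proteins descend from bacterial ribosomal proteins and others were added in mitochondria. By those origins, 29 of the 49 large subunit genes and 16 of the 29 small subunit genes encode relatives of bacterial proteins, 19 and 10 encode proteins found only in mitochondria, and 1 and 3 were left unassigned, among them Mrps18a and Mrps18b, which are related to bacterial S18 beside its closer counterpart Mrps18c. The gene names do not always give the place of the protein. Mrps18a and Mrps30 sit in the large subunit of the mammalian mitoribosome, and Mrps36 belongs to the oxoglutarate dehydrogenase complex and to neither subunit.

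Promoters of the 6 genes whose knockdown difference, given further on, held whichever line was left out are shown here because they are the members the results turn on. Each is the 250 bases before the transcript start, on the + strand, 5' to 3', from RefSeq on GRCm38.p6, another build than the one named by the submitters. The positions are Mrpl34 at chr8:71464676-71464925, Mrps18a at chr17:46110754-46111003, Mrpl55 at chr11:59202236-59202485, Mrpl9 at chr3:94443086-94443335, Mrpl45 at chr11:97315466-97315715 and Mrpl58 at chr11:115403502-115403751. Capitals mark the motifs searched for: CCGGAAG, bound by ETS factors such as GABPA, in Mrpl34, Mrps18a and Mrpl58, GCGCATGCG, bound by NRF1, on both strands in Mrpl9, and CCAAT in Mrps18a.
Mrpl34: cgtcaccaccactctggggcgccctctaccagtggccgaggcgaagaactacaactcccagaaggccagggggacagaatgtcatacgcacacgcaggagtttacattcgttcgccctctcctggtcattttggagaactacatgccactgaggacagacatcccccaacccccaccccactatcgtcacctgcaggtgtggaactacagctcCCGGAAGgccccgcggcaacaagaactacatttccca
Mrps18a: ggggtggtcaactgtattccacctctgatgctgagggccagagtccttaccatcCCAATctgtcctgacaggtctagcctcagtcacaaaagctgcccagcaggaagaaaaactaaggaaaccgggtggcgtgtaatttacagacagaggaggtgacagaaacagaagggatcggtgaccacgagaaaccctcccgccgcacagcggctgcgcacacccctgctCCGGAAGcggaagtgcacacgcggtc
Mrpl55: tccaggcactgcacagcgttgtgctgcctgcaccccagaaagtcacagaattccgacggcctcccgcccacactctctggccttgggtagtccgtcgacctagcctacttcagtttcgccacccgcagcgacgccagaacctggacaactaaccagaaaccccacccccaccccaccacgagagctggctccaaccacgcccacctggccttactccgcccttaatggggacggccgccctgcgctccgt
Mrpl9: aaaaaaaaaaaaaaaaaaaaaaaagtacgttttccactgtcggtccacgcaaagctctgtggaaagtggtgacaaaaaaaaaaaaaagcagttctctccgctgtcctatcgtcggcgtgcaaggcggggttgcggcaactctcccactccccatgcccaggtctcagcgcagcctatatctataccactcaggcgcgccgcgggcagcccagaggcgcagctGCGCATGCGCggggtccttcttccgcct
Mrpl45: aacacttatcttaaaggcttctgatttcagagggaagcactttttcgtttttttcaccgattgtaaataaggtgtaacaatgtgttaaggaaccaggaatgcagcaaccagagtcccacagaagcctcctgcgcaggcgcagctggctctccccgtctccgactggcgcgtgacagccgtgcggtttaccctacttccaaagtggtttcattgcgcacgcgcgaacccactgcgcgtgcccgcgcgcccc
Mrpl58: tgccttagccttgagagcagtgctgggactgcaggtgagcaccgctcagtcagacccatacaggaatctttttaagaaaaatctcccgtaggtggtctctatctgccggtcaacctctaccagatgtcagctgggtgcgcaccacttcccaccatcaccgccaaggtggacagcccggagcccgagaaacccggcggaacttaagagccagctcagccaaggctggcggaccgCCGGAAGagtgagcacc
The ETS motif began 37 bases before the start in Mrpl34, 26 bases before it in Mrps18a and 17 bases before it in Mrpl58. Mrpl9 held the NRF1 motif 28 bases before the start, and the match on the opposite strand overlapped it. Mrpl55 and Mrpl45 held none of the 5 motifs in the exact letters searched, and near matches were not counted. Mrpl45, for example, holds gcgcacgcg, which has c where the NRF1 motif has t. In windows of 300 bases (250 before and 50 after the start, both strands), RefSeq gave 75 promoters for 69 of the members. CCGGAAG was in 34.7% of these, in 8.86% of all 32841 promoters and in 17.5% of the promoters of genes in the table. AAGATGGC, bound by YY1, was in 16% of member promoters, 2.75% of all and 4.37% of those of genes in the table. GCGCATGCG was in 9.33%, 1.75% and 3.55%. Mrps18a held AAGATGGC too in this longer window, but not within the 250 bases printed. The E-box CACGTG was in 9.33% of member promoters (5 genes), 7.15% of all and 9.96% of those of genes in the table, so its share was not above that of the measured genes. CCAAT was in 40%, 37.4% and 37.9%. A match shows only that these letters are present. In the GRCm38 annotation, 23 of the 78 members (29.5%) had another coding gene that started within 1000 bases in the opposite direction, against 12.6% of the 11938 coding genes of the table that could be placed.

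Library totals ran from 11057049 to 18431216 counts. The members together took 0.864 to 1.07% of the counts of a line, and the ratio of large to small subunit counts lay between 1.88 and 2.12. Trp53 was at 5.16 to 7.36 CPM (counts relative to library size, scaled by TMM) in the shTrp53 metastatic lines and 94.5 to 131 CPM in the shCtrl metastatic lines. Each of the 8 squamous markers had a row, with Krt14 at 3816 to 9512 CPM, and in the shTrp53 metastatic lines 1 of the 8 rose (Cdh1) and 2 fell (Krt5 and Krt6a). In bulk RNA, fewer cells of a kind and less RNA per cell cannot be told apart. Of the markers of other cells, 3 of fibroblasts, 1 of immune cells, 2 of endothelium and 0 of lung epithelium had a row. The immune marker Cd68 was at 75 to 143 CPM, while Col1a1, Pecam1 and Vwf were under 2 CPM and Dcn and Pdgfra at most 6.99 CPM in each of the 10 lines. Line numbers are higher in the 3 shTrp53 than in the 5 shCtrl metastatic lines, and the knockdown and the order of the lines cannot be told apart.

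Levels per length differed widely within each subunit. On the scale of CPM per kilobase of the longest principal transcript, averaged over 10 lines, the large subunit genes had a median of 78.7 and the small subunit genes a median of 58.4. The highest large subunit level was that of Mrpl42 at 689 (511 to 830 over the lines), followed by Mrpl28 at 358 (247 to 423) and Mrpl33 at 344 (259 to 453). The ranges of Mrpl28 and Mrpl33 overlapped, and that of Mrpl42 lay above both. Mrpl3 at 16.4, Mrpl47 at 16.5 and Mrpl1 at 18.4 were the lowest, with overlapping ranges. Of the genes named for the small subunit, Mrps18a (269, with 142 to 432 over the lines), Mrps10 (224) and Mrps34 (192) were highest. The protein of Mrps18a sits in the large subunit. Mrps5 (9.36), Mrps25 (18.2) and Mrps2 (19.6) were lowest. The order depends on the transcript. Mrps17 was at 42.3, rank 21, with its longest principal transcript of 5061 bases and at 258, rank 2, with its shortest of 832 bases, which puts Mrps34 at rank 5 behind Mrps21 (206). Mrps18a thus spanned the widest of these small subunit ranges, and the samples at its top were the shTrp53 metastatic lines described next. The members varied little between lines of a group. Their median SD of log2 CPM was 0.18 among the 5 shCtrl metastatic lines, against 0.22 for the 6665 genes of the table in the same range of CPM. Among the 3 shTrp53 metastatic lines it was 0.11 against 0.17.

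**Figure D1:**
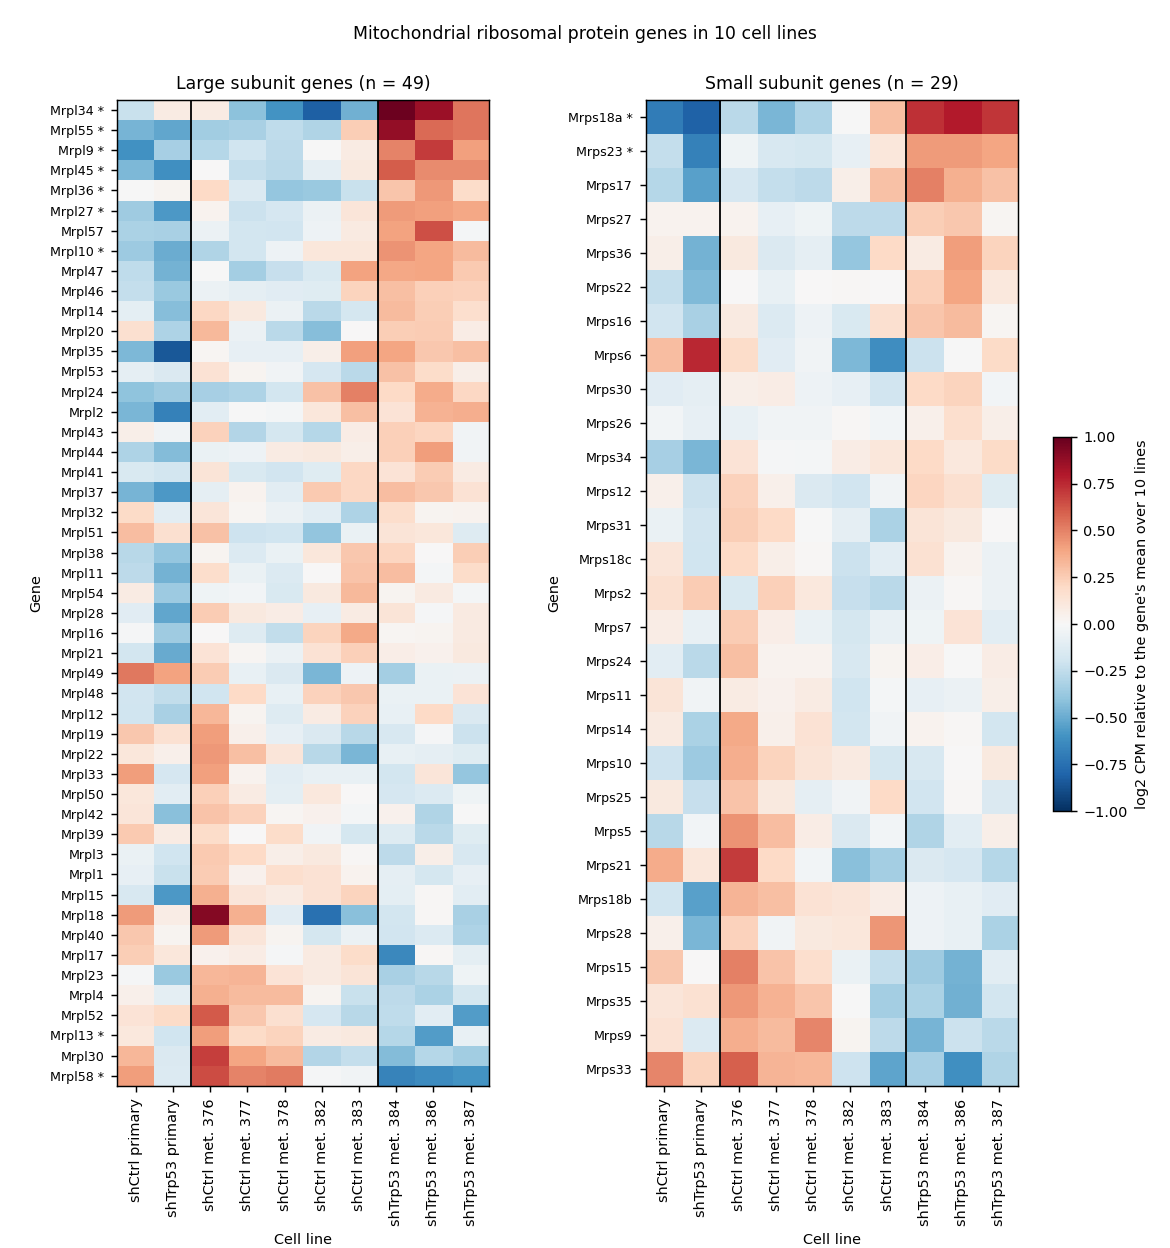
Colour map of the 49 large and 29 small subunit genes (rows, ordered by the knockdown difference) in 10 cell lines (columns). Colour gives log2 CPM relative to the mean of the gene over 10 lines, asterisks mark genes with adjusted p under 0.05 in the metastatic knockdown comparison, and the columns of the shTrp53 metastatic lines are red for Mrpl34 and Mrps18a at the top and blue for Mrpl58 at the bottom.

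The first comparison asked how lowering mutant Trp53 changed these genes in the metastatic lines, 3 shTrp53 against 5 shCtrl. A small set of members moved, and most of the mitoribosome did not pass the test. With edgeR's quasi-likelihood test and Benjamini-Hochberg adjustment over 12120 genes, 9 of the 78 members rose in the shTrp53 lines and 2 fell, at an adjusted p under 0.05. Of all genes tested, 10.9% rose and 10.8% fell, 21.7% in all, against 14.1% of the members. The median log2 fold change was -0.01 over the large subunit genes, 0.02 over the small subunit genes and -0.01 over all genes. The middle 50% of changes lay between -0.21 and 0.25 for the large subunit, between -0.25 and 0.18 for the small subunit and between -0.38 and 0.34 for all genes. CPM of the 2 groups did not overlap for 18 of the 78 members (23.1%), against 29.4% of all genes. The share of members that rose was near that of all genes, and the shares that fell or did not overlap were smaller. That depended on the lines and the tool. Without shCtrl line 383, 13 members rose and 8 fell, 26.9% of the members and 26.9% of all genes. With DESeq2, 21.8% of the members passed against 28.1% of all genes, and 6 fell. With limma voom, 24.4% passed against 29.6%, and 7 fell. With a trend on transcript length and GC content removed, 19.2% passed against 22.4%, and 6 fell. Without line 384 or line 386, 5 rose and 1 fell. That is 7.69% of the members, against 9.35% and 9.53% of all genes.

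**Figure D2:**
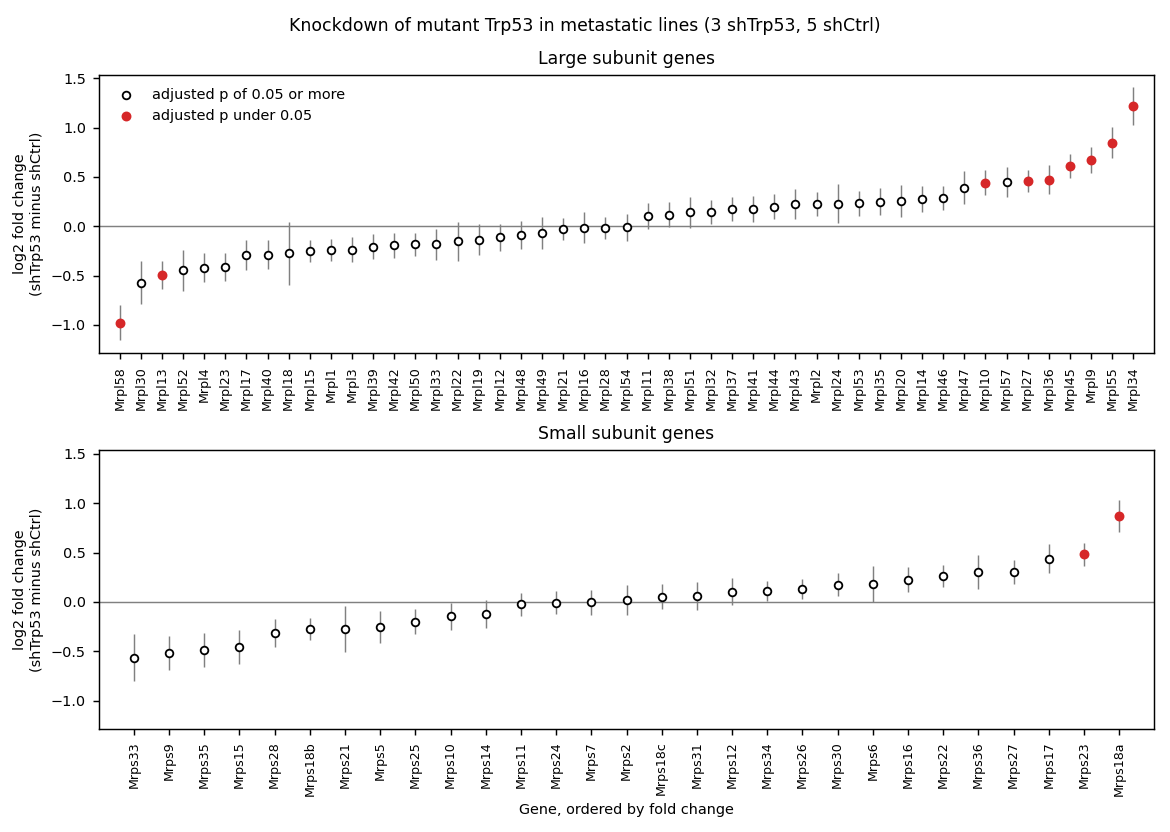
Log2 fold change (shTrp53 minus shCtrl, y axis) of each member (x axis, ordered by fold change) in the metastatic lines, large subunit above and small subunit below, with bars of 1 SE from edgeR. Filled points have an adjusted p under 0.05, 9 of 49 large subunit genes and 2 of 29 small subunit genes, and most other points lie within 0.50 of 0.

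Among the 29 large subunit genes whose proteins have bacterial relatives, 5 rose and 1 fell. That is 20.7%, near the 21.7% of all genes. Mrpl34, a relative of bacterial L34, was at 42.2, 30, 26.5, 22.7 and 28.6 CPM in shCtrl metastatic lines 376, 377, 378, 382 and 383, and at 78.8, 72.2 and 57.9 CPM in shTrp53 metastatic lines 384, 386 and 387. All 3 shTrp53 lines were above all 5 shCtrl lines, and the 2 primary lines (34.3 CPM for shCtrl, 42.3 CPM for shTrp53) lay within or just above the shCtrl metastatic range. Mrpl34 had a log2 fold change of 1.22 (SE 0.19, adjusted p = 0.00341), the largest rise of any member. Mrpl9, a relative of bacterial L9, was at 67.7, 72.0, 69.0, 82.5 and 87.3 CPM in the shCtrl lines in the same order and at 117, 134 and 109.7 CPM in the shTrp53 lines. The groups did not overlap, and the primary lines, at 54.2 CPM (shCtrl) and 65.6 CPM (shTrp53), were below every metastatic line. Mrpl9 rose by 0.67 (SE 0.13, adjusted p = 0.00773).

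Mrpl27, a relative of the bacterial protein L27 that lies near the peptidyl transferase centre, rose by 0.46 (SE 0.11, adjusted p = 0.0187), from 112.6 to 142 CPM in the shCtrl lines to 171 to 175 CPM in the shTrp53 lines. Mrpl10, the base of the stalk that binds translation factors, rose by 0.44 (SE 0.13, adjusted p = 0.0320), from 110.2 to 147 CPM to 169 to 186 CPM. Neither gene's groups overlapped. Mrpl36, a relative of bacterial L36, rose by 0.47 (SE 0.15, adjusted p = 0.0441), but its groups overlapped, since shCtrl line 376 at 154 CPM was above shTrp53 line 387 at 153 CPM. Mrpl12, which forms the stalk on Mrpl10, did not pass the test (log2 fold change -0.11, adjusted p = 0.578). Mrpl13, a relative of bacterial L13, was lower in the shTrp53 lines, at 77.7, 64.4 and 89.9 CPM against 100.2 to 126 CPM in the shCtrl lines. The groups did not overlap, and Mrpl13 fell by 0.49 (SE 0.14, adjusted p = 0.0304).

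Among the other large subunit genes, Mrpl55 and Mrpl45 rose and Mrpl58 fell. Over the whole large subunit by name, 9 of 49 genes passed (18.4%), against 21.7% of all genes. Mrpl55 was at 87, 88.1, 92.8, 89.6 and 131 CPM in shCtrl lines 376, 377, 378, 382 and 383 and at 203, 164 and 159.9 CPM in shTrp53 lines 384, 386 and 387. Line 383 stood apart from the other 4 shCtrl lines and was still below every shTrp53 line. Mrpl55 rose by 0.85 (SE 0.16, adjusted p = 0.00676). Mrpl45, which holds the mitoribosome to the inner membrane beside the exit of the peptide tunnel, was at 233, 198, 193, 219 and 249 CPM in the shCtrl lines and at 354, 322 and 322 CPM in the shTrp53 lines. The groups were separate, and Mrpl45 rose by 0.61 (SE 0.12, adjusted p = 0.00788). Its primary lines, at 171 CPM (shCtrl) and 152 CPM (shTrp53), were lower than all 8 metastatic lines.

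Mrpl58, also known as Ict1, is a peptidyl-tRNA hydrolase built into the large subunit that can release stalled chains. It was at 134, 121, 123, 84.8 and 83.5 CPM in shCtrl lines 376, 377, 378, 382 and 383 and at 53.9, 55.5 and 56.5 CPM in shTrp53 lines 384, 386 and 387. The 3 shTrp53 lines were nearly equal and lowest, and shCtrl lines 382 and 383 lay between them and lines 376 to 378. Mrpl58 fell by 0.98 (SE 0.18, adjusted p = 0.00598). With a term that sets lines 376 to 378 apart from the other lines, Mrpl58 still passed at a smaller change of -0.61 (adjusted p = 0.0162).

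Of the 29 small subunit genes by name, Mrps18a and Mrps23 rose (6.90%, against 21.7% of all genes called). Mrps18a, which is 1 of 3 relatives of bacterial S18 and sits in the large subunit, was at 182, 159.9, 178, 219 and 271 CPM in shCtrl lines 376, 377, 378, 382 and 383 and at 364, 381 and 361 CPM in shTrp53 lines 384, 386 and 387. The shTrp53 lines lay close together and above every shCtrl line, and both primary lines were lowest, at 135 CPM (shCtrl) and 125 CPM (shTrp53). Mrps18a rose by 0.87 (SE 0.16, adjusted p = 0.00678). The other 2 relatives of S18 did not pass the test. Mrps18b, at 127 to 154 CPM in the shCtrl lines and 112 to 117 CPM in the shTrp53 lines, had a log2 fold change of -0.28 (adjusted p = 0.0959), and Mrps18c had one of 0.05 (adjusted p = 0.783).

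Mrps23, a small subunit protein found only in mitochondria, was at 47.8 to 58.2 CPM in the shCtrl lines and at 72.4, 72.2 and 70.8 CPM in the shTrp53 lines. These ranges were separate, and Mrps23 rose by 0.48 (SE 0.12, adjusted p = 0.0165). The member nearest to the threshold on the lower side was Mrps9, a relative of bacterial S9, at 73.0 to 123 CPM in the shCtrl lines and 63.5 to 75.4 CPM in the shTrp53 lines. Its groups overlapped and it did not pass (log2 fold change -0.52, SE 0.17, adjusted p = 0.0516). Mrps12, the decoding centre protein, Mrps30 and Mrps36 had log2 fold changes of 0.10, 0.18 and 0.30, with adjusted p-values of 0.614, 0.285 and 0.222. With the genes placed where their proteins sit, 10 of 51 large subunit genes and 1 of 26 small subunit genes passed the test, and the 1 was Mrps23. These are 19.6% and 3.85%, against 21.7% of all genes, and the difference between the subunits was not tested. Only genes named Mrpl or Mrps enter these counts. Of 5 mitoribosomal proteins with other names, given further on, 2 fell, Chchd1 and Ptcd3, both of the small subunit.

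**Figure D3:**
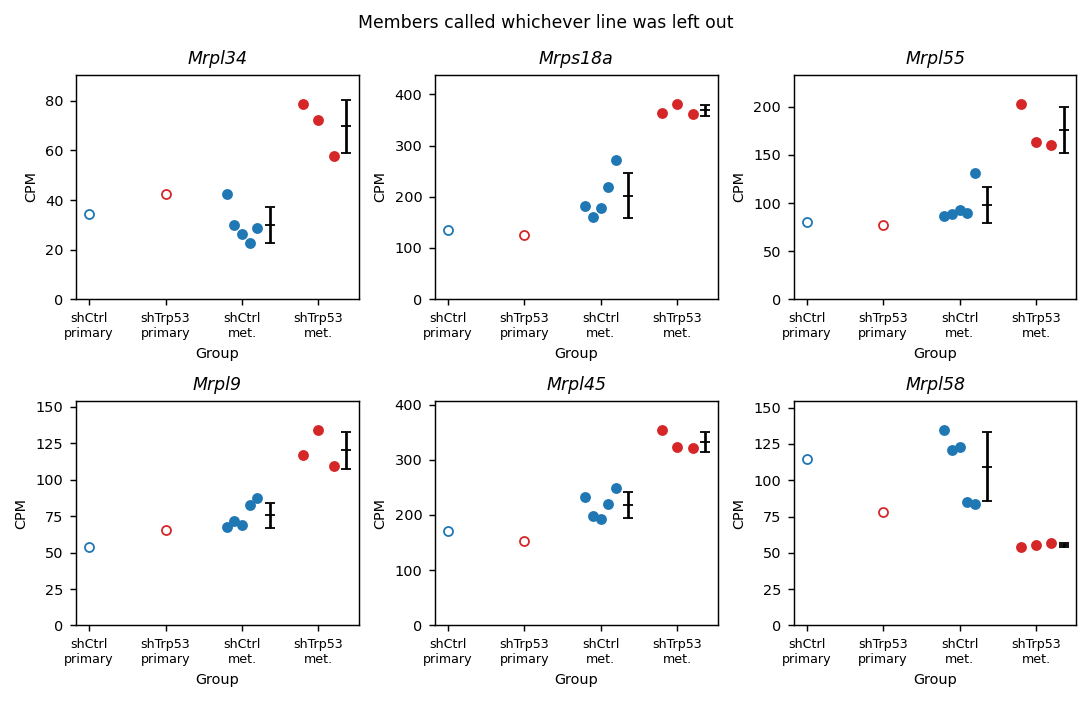
CPM (y axis, from 0) of 6 members in the 4 groups (x axis), 1 point per line, with the mean and SD of the 5 shCtrl and 3 shTrp53 metastatic lines beside the points. The shTrp53 metastatic lines lie above all shCtrl metastatic lines for Mrpl34, Mrps18a, Mrpl55, Mrpl9 and Mrpl45 and below them for Mrpl58.

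These 6 genes, Mrpl34, Mrps18a, Mrpl55, Mrpl9, Mrpl45 and Mrpl58, passed the test whichever of the 8 lines was left out, with a highest adjusted p of 0.0374. The other 5 did not. Mrpl27 and Mrps23 missed the threshold without line 384 or 386, with adjusted p of 0.0510 to 0.0650. Mrpl10, Mrpl13 and Mrpl36 missed it without several of the lines, among them 377, 378, 384 and 386, with adjusted p up to 0.145. All 5 also missed it with the term for lines 376 to 378 (adjusted p of 0.0565 to 0.188). Tested against a change of 1.5-fold, only Mrpl34 passed. Mrpl13, Mrpl27 and Mrpl36 share exon sequence with Mtbp, Eme1 and Ndufs6 on the opposite strand, and the sources used here do not give the strand setting of the counting, so reads of the partners cannot be told apart. The same holds for Mrpl9, which shares exon sequence with Oaz3, Mrpl58 with the antisense RNA Ict1os and Mrpl10 with Gm11574, all on the opposite strand. Ndufs6, the partner of Mrpl36, rose too, by 0.41.

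The chromosomal surroundings of some members moved the same way. Of the 9 genes that rose, 5 lie on chromosome 11 (Mrpl55, Mrps23, Mrpl27, Mrpl10 and Mrpl45), which holds 11 members and also Mrpl58. Relative to all genes, the median log2 fold change of the 1002 tested genes of chromosome 11 was 0.03. It was 0.31 on chromosome 8, where Mrpl34 lies, and 0.33 on chromosome 13, where Mrpl36 lies. Over the 20 tested genes on either side, the median was 0.53 for Mrpl9, 0.42 for Mrpl34, 0.39 for Mrpl36 and 0.30 for Mrpl27. Relative to those neighbours the change of Mrpl9 was 0.15, that of Mrpl36 was 0.10, that of Mrpl27 was 0.18 and that of Mrpl34 was 0.81. Mrps18a and Mrpl58 changed by 1.07 and -0.97 relative to their neighbours, which had medians of -0.19 and 0.00. Mrpl13 changed by -0.20 relative to neighbours with a median of -0.29. The part of the neighbourhood in these changes was not tested.

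**Figure D4:**
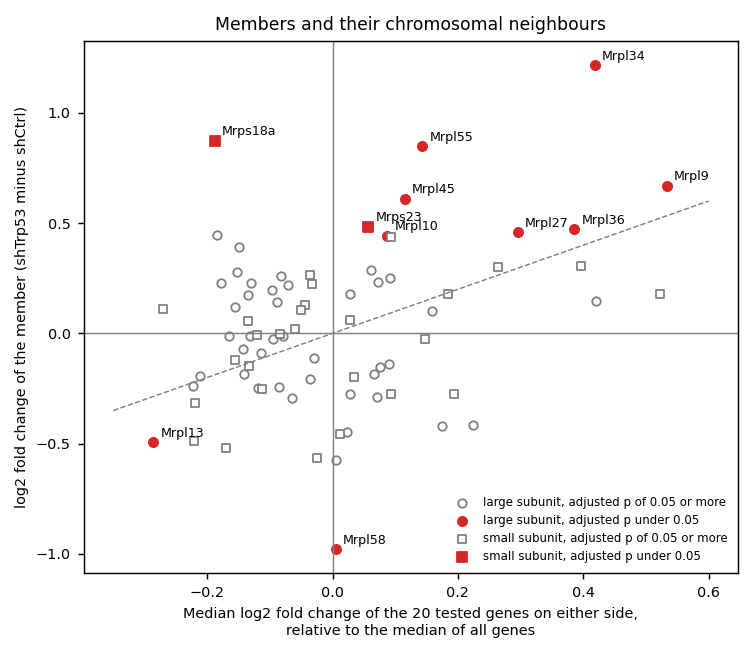
Log2 fold change of each member (y axis, shTrp53 minus shCtrl in metastatic lines) against the median log2 fold change of the 20 tested genes on either side (x axis, relative to all genes). The dashed line marks equal values, filled symbols have an adjusted p under 0.05, and Mrpl9, Mrpl27 and Mrpl36 lie nearest to the line among the genes that rose.

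Set side by side, the subunits did not separate in the metastatic lines. The median of the large subunit genes (log2 CPM relative to the mean of each gene over 10 lines) was 0.18, 0.02, -0.08, -0.03 and 0.08 in shCtrl metastatic lines 376, 377, 378, 382 and 383 and 0.13, 0.06 and 0.00 in shTrp53 metastatic lines 384, 386 and 387. The small subunit median was 0.23, 0.05, 0.00, -0.09 and -0.03 in the same shCtrl lines and 0.04, 0.01 and 0.00 in the same shTrp53 lines. The groups overlapped for both subunits, and line 376 was highest for both. The large subunit minus small subunit difference was between -0.08 and 0.11 in the shCtrl lines. It was between 0.00 and 0.09 in the shTrp53 lines, which overlap too. In the primary lines the large subunit median was -0.08 (shCtrl) and -0.31 (shTrp53), and the small subunit median 0.05 and -0.20. Their difference was -0.13 and -0.11, lower than in every metastatic line. With 1 primary line per hairpin, this was not tested. A list of 20 mitosis genes was chosen because earlier results of these data showed it to differ with line number and group. That it moved with the groups is thus no separate result. Its median was 0.66, 0.55, 0.43, -0.02 and -0.08 in the shCtrl lines and -0.71, -1.13 and -0.60 in the shTrp53 lines, and its part in the changes of single members was not tested.

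**Figure D5:**
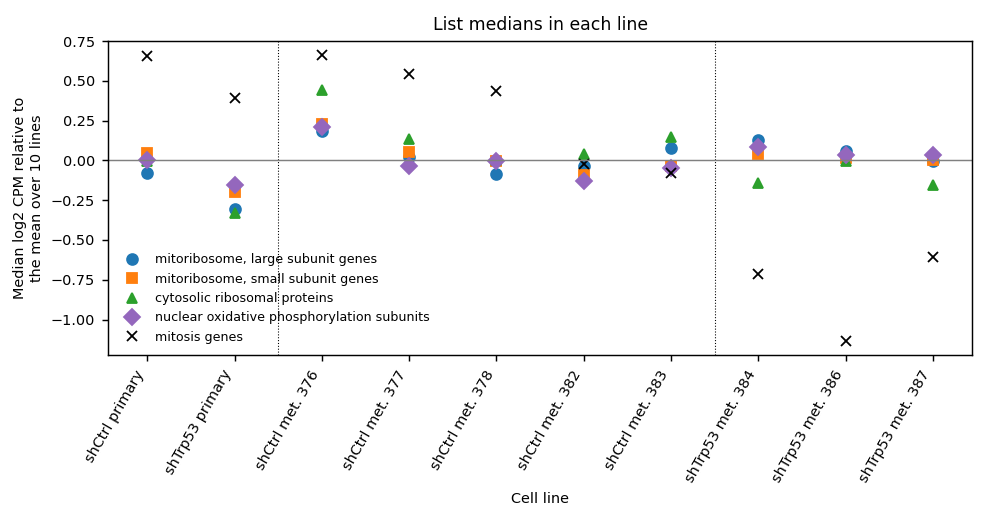
Median log2 CPM relative to the mean of each gene over 10 lines (y axis) for 5 gene lists in each cell line (x axis), with dotted lines between the primary, shCtrl metastatic and shTrp53 metastatic lines. Both mitoribosome subunits stay between -0.31 and 0.23 in all lines, while the mitosis genes run from 0.66 in shCtrl line 376 to -1.13 in shTrp53 line 386.

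The genes around the mitoribosome were read in the same comparison, in which 21.7% of all genes passed the test. Of 5 mitoribosomal proteins with other names, 2 fell (40% called), and the median was -0.26 on the log2 scale. Both belong to the small subunit. Chchd1 was at 63.7 to 108 CPM in the shCtrl lines and 34.4 to 56.6 CPM in the shTrp53 lines (log2 fold change -0.75, adjusted p = 0.0294), and Ptcd3 at 115 to 190 CPM and 83.3 to 108 CPM (-0.73, adjusted p = 0.0156). Of 28 mitoribosome assembly genes, 4 rose and 2 fell, 21.4% in all and thus near the share of all genes, with a median of -0.02. Mpv17l2, an inner membrane protein needed for mitoribosome assembly, was at 57.7 to 62.7 CPM in all 5 shCtrl lines and at 160.3, 116 and 120.3 CPM in the shTrp53 lines. That is a clear gap between the groups, and Mpv17l2 rose by 1.14 (SE 0.13, adjusted p = 0.000705). It lies on chromosome 8, as does Mrpl34. Mettl15, a methyltransferase of the small subunit RNA, fell by 0.92 (adjusted p = 0.0272), the pseudouridine synthase-like Rpusd3 rose by 0.80 (adjusted p = 0.0269) and the helicase Ddx28 rose by 0.63 (adjusted p = 0.0242).

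Of 14 mitochondrial translation factors, 2 rose and 3 fell (35.7%), with a median of -0.19. Gfm2, the elongation factor G that splits the ribosome after termination, rose by 0.69 (adjusted p = 0.00967), from 51.1 to 73.5 CPM to 100.8 to 103.8 CPM. Mtrf1, a release factor relative, fell by 0.69 (adjusted p = 0.0418), Lrpprc, which stabilises mitochondrial messenger RNA, fell by 0.59 (adjusted p = 0.0305), and Taco1, an activator of Cox1 translation, rose by 0.58 (adjusted p = 0.0288). Of 17 mitochondrial aminoacyl-tRNA synthetases, 1 rose (Fars2, 0.45) and 2 fell (Aars2, -0.93, and Sars2, -0.67), 17.6% in all, with a median of -0.27. Of 16 genes of mitochondrial transcription and RNA processing, 2 fell, Tfam by 1.01 (adjusted p = 0.0166) and the helicase gene Supv3l1 by 0.53, which is 12.5%. Tfam, which packs and transcribes mitochondrial DNA, was at 43.4, 46.7, 45.8, 28.6 and 22.7 CPM in shCtrl lines 376, 377, 378, 382 and 383 and at 19.4, 18.4 and 18.0 CPM in the shTrp53 lines. The shCtrl lines themselves thus fell into a higher trio and a lower pair, as they did for Mrpl58, and with the term for lines 376 to 378 Tfam did not pass (-0.47, adjusted p = 0.0905).

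Of 10 tested regulators of nuclear genes for mitochondria, Nrf1 fell and Myc rose, which is 20%. Nrf1, the factor that binds the motif printed in capitals in the Mrpl9 promoter, was at 55 to 70.1 CPM in the shCtrl lines and at 31.8, 38.9 and 44.7 CPM in the shTrp53 lines. The groups were separate, and Nrf1 fell by 0.72 (SE 0.15, adjusted p = 0.00927). Myc rose by 0.71 (adjusted p = 0.0478). Of these 20 called genes, 3 passed whichever line was left out: Mpv17l2, Gfm2 and Nrf1. The same 3 passed with the term for lines 376 to 378, and the other 17 did not. Some of those 17 had changes more than 1.5 times smaller with that term, among them Myc (0.32, adjusted p = 0.278), Mtrf1 (-0.31, adjusted p = 0.350), Lrpprc (-0.36, adjusted p = 0.189), Chchd1 (-0.48, adjusted p = 0.182) and Rpusd3 (0.49, adjusted p = 0.179). For comparison, 27 of 75 cytosolic ribosomal protein genes fell and 4 rose (41.3%, median -0.22), and 7 of 78 nuclear oxidative phosphorylation subunit genes fell and 13 rose (25.6%, median 0.05).

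The second comparison set the 8 metastatic lines against the 2 primary lines, with the hairpin as a covariate. Of the 78 members, 13 were higher in the metastatic lines and 2 lower at an adjusted p under 0.05 (edgeR quasi-likelihood test), while of 12754 genes tested 7.03% were higher and 7.57% lower, 14.6% in all. The large subunit had 10 higher and 1 lower, the small subunit 3 higher and 1 lower. Median log2 differences were 0.19 for the large subunit, 0.12 for the small subunit and -0.04 for all genes. Without the shTrp53 primary line, 0 of the members passed (8 stood at an unadjusted p under 0.05), as against 121 genes of the table, and the medians were 0.13 and 0.05. With the shCtrl lines alone 0 members passed too (3 at an unadjusted p under 0.05). Without the shCtrl primary line, 13 members were higher and 0 lower, with medians of 0.34 and 0.24. With limma voom on all lines 4 were higher and 0 lower, and with DESeq2 21 were higher and 2 lower. Leaving out a metastatic line gave 6 to 14 higher and 0 to 2 lower.

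The largest differences were those of Mrps18a, Mrpl35, Mrpl2 and Mrpl45. Mrps18a was at 125 and 135 CPM in the primary lines and at 159.9 to 381 CPM (median 245) in the metastatic lines, a log2 difference of 1.00 (SE 0.24, adjusted p = 0.0212). Mrpl35, a relative of bacterial L35, was at 80.4 and 106 CPM against 136 to 193 CPM (median 163), 0.81 higher (adjusted p = 0.0156). For both genes every metastatic line was above both primary lines. Mrpl2, a relative of the core protein L2, was at 135 and 158 CPM against 202 to 279 CPM (median 236), 0.72 higher (adjusted p = 0.0140). Mrpl45 was 0.69 higher (adjusted p = 0.0270), with a median of 241 CPM in the metastatic lines. The others that were higher were Mrpl37, Mrpl9, Mrpl27, Mrpl10, Mrps34, Mrpl44, Mrps18b, Mrpl15 and Mrpl21, by 0.42 to 0.66. The fit gives both hairpins 1 common site difference. Mrps18a, Mrpl45, Mrpl9, Mrpl27 and Mrpl10 also rose in the shTrp53 metastatic lines, so their site differences and ranges include that rise. For Mrps18a the mean was 202 CPM in the shCtrl and 369 CPM in the shTrp53 metastatic lines. Lower in the metastatic lines were Mrps6, a relative of bacterial S6, at 54.4 to 95.2 CPM (median 79.5) against 104 and 141 CPM (log2 difference -0.62, adjusted p = 0.0484), and Mrpl49, at 45.9 to 75.3 CPM (median 60.1) against 83.5 and 91.0 CPM (-0.58, adjusted p = 0.0363). The groups did not overlap for Mrps6 or Mrpl49. Mrps6 shares exon sequence with Slc5a3, and Mrps34 with Nme3, on the same strand. Mrpl49, Mrpl21, Mrpl44 and Mrps18b share exon sequence with Syvn1, Ighmbp2, Wdfy1 and Gm16279 on the opposite strand. Reads of these partners cannot be told apart here or in the primary pair. Without the shTrp53 primary line the differences of Mrps18a, Mrpl35, Mrpl2 and Mrpl45 were 0.59, 0.54, 0.53 and 0.36, with adjusted p of 0.230 to 0.392.

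The primary pair was 1 line against 1, so it has no test and no replicate check. Of the 78 members, 68 were lower in the shTrp53 primary line than in the shCtrl primary line, 44 of 49 in the large subunit and 24 of 29 in the small subunit, against 51.8% of all genes. Medians of the log2 ratio were -0.15, -0.16 and -0.02 for large, small and all genes. None of the members was past 2-fold, against 8.45% of all genes. The largest ratios were those of Mrps6 at 0.44 (95% counting interval 0.34 to 0.54), Mrpl34 at 0.30 (0.13 to 0.48) and Mrpl9 at 0.27 (0.13 to 0.42). The lowest were Mrpl33 at -0.58 (-0.67 to -0.50), Mrpl58 at -0.56 (-0.67 to -0.45) and Mrpl42 at -0.53 (-0.59 to -0.48). Of the 9 members that rose in the shTrp53 metastatic lines, 3 had a primary ratio above 0 (Mrpl34, Mrpl9 and Mrpl36 at 0.03) and 6 had one below 0: Mrps23 at -0.43, Mrpl27 at -0.22, Mrpl45 at -0.17, Mrpl10 at -0.13, Mrps18a at -0.11 and Mrpl55 at -0.06. Both members that fell, Mrpl58 and Mrpl13 (-0.31), had ratios below 0, as did most of the list. The shift over the whole list was shared by some other lists only. Of 75 cytosolic ribosomal protein genes 74 were lower, of 79 oxidative phosphorylation genes 72, and of 5 mitoribosomal proteins with other names 5. Other mitochondrial lists did not share it. Lower were 14 of 28 assembly genes, 8 of 14 translation factors, 4 of 17 aminoacyl-tRNA synthetases and 8 of 16 transcription and RNA processing genes. Median transcript lengths were 1316 bases for the large subunit, 1197 for the small subunit and 2981 for all genes. With a trend on transcript length and GC content taken out of each library, 46 of 78 members were lower (59.0%, against 45.5% of all genes), with medians of -0.07 and 0.00 for the large and small subunits.

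Whether the knockdown difference itself differed between the metastatic and the primary lines was tested in a fit of 4 groups. No gene of the table passed at an adjusted p under 0.05 (0% of 12754, edgeR quasi-likelihood test), and with DESeq2 size factors in edgeR the count was 0 too. At an unadjusted p under 0.05 stood 5 members, against 9.16% of all genes, namely Mrps23 (0.92), Mrps18a (0.98), Mrpl55 (0.91), Mrpl45 (0.77) and Mrpl27 (0.68, metastatic minus primary log2 difference), with adjusted p of 0.457 to 0.519. As a share of the 78 members, 5 is below that 9.16%. All 5 were higher with shTrp53 in the metastatic lines and lower with it in the primary pair, where 68 of the 78 members were lower. Picking genes by a large positive interaction favours such signs, so the signs are no separate result. The 5 genes are named after their values were seen. With 1 primary line per hairpin, that fit takes the spread of the primary lines from the metastatic ones.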

How the data were processed

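The authors deposited 1 table of counts, whole numbers with 1 column for each of 10 libraries, used as they stand. SMART-Seq v4 cDNA from 1 ng of RNA was sheared to about 150 bases, per the labels' protocols. Build mm9, STAR 2.5, Cufflinks 2.2.1 and DESeq2 are listed in the submitters' processing notes. What each tool did, the strand setting and the annotation: not given in the sources used here.

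Of 12824 rows, 18 with a bare number for a name (0.332 to 0.491% of a library) were left out. No 2 libraries were identical. Of the 12806 named genes, 12765 matched a mouse symbol and 28 a synonym. The test was that of edgeR 4.0.16 under R 4.3.3 (filterByExpr, TMM, robust glmQLFit, glmQLFTest) over all genes, with Benjamini-Hochberg adjusted p under 0.05. The knockdown fit held 8 metastatic lines and the site fit 10 lines, with the hairpin as a covariate. Standard errors come from the F statistic. CPM use TMM over 10 libraries, and log2 values per line a prior count of 2. Primary ratios have exact binomial intervals at 95%, which cover counting error only. Lengths and GC content came from reference transcripts of GENCODE. The members, lists and tests were chosen with earlier results of these data known. Named genes followed a rule: called members in the knockdown comparison, the 4 largest site differences each way, the 3 largest primary ratios each way, the 3 highest and lowest levels per subunit, Mrps18a to Mrps18c, Mrpl12, Mrps12, Mrpl45, Mrps30 and Mrps36, and up to 4 called genes per related list.

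Alternatives tried were limma voom 3.58.1, DESeq2 1.42.0 and its size factors in edgeR, upper-quartile scaling, a length and GC trend, no robust dispersion, other low-count filters, a test against 1.5-fold, fits on fewer lines and each line left out. Neighbouring genes, a line-number term and the 4-group fit for subunit medians, and the trend for the primary pair, were added after seeing the data. In simulated data for the knockdown comparison (12120 genes), the test recovered 52 of 67 genes with a 4-fold change, 37 of 73 with 2-fold and 7 of 60 with 1.5-fold, and called 1 unchanged gene. In the site comparison (12754 genes) it recovered 47 of 63, 20 of 60 and 1 of 77, and called 4. Far fewer genes were changed in the simulated data than the 2634 called in the real knockdown comparison. Recovery after adjustment depends on that share, so these values cannot be carried over to the real data.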

Additional observations from a re-analysis of the deposited data

Results flagged for a closer look

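Among 5 shCtrl metastatic lines, 82 series of values were read for a line that stood apart (Dixon's test at 95%): 78 members and 4 medians. A line stood apart in 5 of them, while chance gives about 1 in 20. Line 383 was above the other 4 lines for Mrpl55 (131 CPM against 87 to 92.8), Mrpl46 (97.0 CPM against 76.4 to 79.5) and Mrpl35 (193 CPM against 136 to 151). Line 376 was above the others for Mrpl33 (215 CPM against 151 to 166), and line 377 was below them for Mrps22 (49.1 CPM against 51.8 to 52). Mrpl55 passed the knockdown test without line 383 as well.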

How the results depend on the processing

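The members that rose in the knockdown comparison numbered 9 and those that fell 2. Members that fell numbered 6 with DESeq2, 7 with limma voom, 6 with the length and GC trend removed, 1 with the term for line numbers 376 to 378 and 0 against 1.5-fold, where 1 rose (4 at an unadjusted p under 0.05). Leaving out each line gave 5 to 13 that rose and 1 to 8 that fell. Over all genes, 2634 were called, 3406 with DESeq2, 3592 with limma voom, 981 with the term, 330 against 1.5-fold and 1154 to 3239 with a line left out, lowest without line 384 or 386. The large minus small difference of median changes was -0.03, and 0.043 with limma voom, 0.11 by place in the mitoribosome, 0.044 for means and -0.084 to 0.091 with a line left out, against an SD of 0.07 between lines. The large subunit median was 0.10 by place, and the small subunit median 0.13 with the term. The cause of these shifts was not tested.

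In the site comparison 13 members were higher and 2 lower. The higher numbered 21 with DESeq2, 4 with limma voom and 0 both against 1.5-fold and in shCtrl lines only. The lower numbered 1 with DESeq2 size factors and 0 with limma voom, against 1.5-fold and in shCtrl lines only. With a line left out, 0 to 14 were higher and 0 to 2 lower, and none of the 15 passed in every such fit. The large subunit median of 0.19 was 0.092 with the length and GC trend removed and 0.13 to 0.34 with a line left out, and the small subunit median of 0.12 was 0.052 to 0.24. Over all genes 1863 were called, 2813 with DESeq2, 730 with limma voom, 313 against 1.5-fold, 80 in shCtrl lines only and 121 to 2678 with a line left out. For the primary pair, the small subunit median of -0.16 was -0.0012 with the trend removed. The other 98 main values under an alternative stayed within 1.5 times of the count or 1 SD. No result changed sign past its threshold. For single genes, 407 of the values under other settings kept their call and 105 lost it, and 226 kept it and 172 lost it with a line left out.

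No paired analysis was possible because the groups share no line numbers, and the primary lines have 1 line each. Each member had at least 2463 counts over the 10 libraries. In simulated data over all genes tested, 7 of 60 changes of 1.5-fold were recovered, and this was not read for genes at the members' counts and spread.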
